A study of Mus musculus with 12 samples.

Results

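Cdc40, Rnf187, Dtnb, Rnf169 and Camkmt, 5 of the 46078 genes counted, were followed through the B cells of mice whose Zbtb24 gene was deleted in blood cells. Cdc40, Rnf169 and Camkmt were included as reported targets of ZBTB24, and Rnf187 and Dtnb were chosen by their lower counts in the knockout cells of these same libraries. Their differences between knockout and control are therefore given as a description, with no test, and the rule sets no threshold. The libraries were made from spleen B cells of C57BL/6 mice aged 8 to 12 weeks. Marginal zone (MZ) and follicular (FO) B cells of VAVcre-Zbtb24 mice (CKO, genotype labelled Zbtb24-/-) were set against those of VAVcre controls (labelled WT), with 3 libraries in each of the groups MZ CKO, MZ control, FO CKO and FO control. All groups share the Vav-driven Cre, which acts in blood-forming cells, so the deletion is not limited to B cells.

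ZBTB24 is a zinc finger protein that binds DNA and activates a small set of genes. Its loss in people causes a form of ICF syndrome, an immune deficiency with too little antibody. MZ B cells line the marginal sinus of the spleen and answer blood-borne antigen quickly, while FO B cells recirculate and take part in germinal centre responses. Of the genes followed here, Cdc40 encodes a splicing factor (PRP17 in yeast) of the second catalytic step. Rnf187 encodes a RING ubiquitin ligase known in human cells as RACO-1, a coactivator of the AP-1 factor JUN. Dtnb encodes dystrobrevin beta, a component of dystrophin-associated complexes. Rnf169 encodes a RING protein that binds the ubiquitin marks left by RNF168 at DNA double-strand breaks and limits the recruitment of 53BP1 there. Camkmt encodes the methyltransferase that modifies a lysine of calmodulin.

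The groups held 36340116 to 44629250 counts that name a gene per library, while 43.2% to 50.4% of each library's counts named no gene. Zbtb24 transcripts were counted in every library, and its CKO level was 83.1 ± 5.04% of the control mean in MZ cells and 78.9 ± 2.56% in FO cells (SD, n = 3 each). These gene totals cannot show which exons were lost. Summed CPM (reads scaled to a fixed library size with TMM factors) of 6 B cell genes lay between 6915 and 9051 in all 12 libraries. Summed CPM of 8 MZ marker genes was 5331 to 6948 in MZ CKO and 6154 to 6919 in MZ control libraries, against 1431 to 1725 in FO CKO and 1166 to 1581 in FO control libraries. For 6 neutrophil markers it was 67.7 to 234 in MZ CKO against 44.8 to 135 in MZ control libraries, and 116 to 385 in FO CKO against 72.5 to 186 in FO control libraries. For 7 T cell markers it was 150 to 238 in MZ CKO against 180 to 259 in MZ control libraries, and 211 to 311 in FO CKO against 300 to 349 in FO control libraries. In whole-population RNA, fewer cells that make a transcript and less RNA per cell cannot be told apart. The part of other cell types in the differences below was not tested. The labels name animals by number, and the same 6 numbers occur once among MZ and once among FO libraries.

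The promoters are shown first because ZBTB24 is known to bind a longer consensus around CAGGACCT. RefSeq promoter windows (GRCm38.p6) of 300 bases, from 250 before to 50 after the start of a transcript, were searched for CAGGACCT on the strand of the gene, and for AGGTCCTG, the same motif on the other strand. The 8-letter motif was found in 653 of 32851 windows, or 1.99%. It was found for 4 of the 5 genes, Cdc40, Rnf187, Dtnb and Camkmt. The genes were chosen as reported targets or by low CKO counts, so nothing is read from this count beside the share of all windows. The 4 windows that hold it follow, 5′ to 3′ on the strand of the gene, with the motif and its 7-letter parts CAGGACC or AGGACCT, either strand, in capitals. The parts alone are common: CAGGACC occurred in 6.81% and AGGACCT in 4.88% of windows, counting those inside the whole motif.
Cdc40, chr10:40883094-40883393, minus strand: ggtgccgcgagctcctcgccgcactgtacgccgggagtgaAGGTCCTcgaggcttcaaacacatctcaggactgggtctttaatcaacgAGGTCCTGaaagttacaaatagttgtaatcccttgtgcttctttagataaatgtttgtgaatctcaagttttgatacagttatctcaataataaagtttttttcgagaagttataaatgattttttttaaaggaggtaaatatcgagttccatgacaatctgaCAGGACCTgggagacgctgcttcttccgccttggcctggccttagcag
Rnf187, chr11:58938857-58939156, minus strand: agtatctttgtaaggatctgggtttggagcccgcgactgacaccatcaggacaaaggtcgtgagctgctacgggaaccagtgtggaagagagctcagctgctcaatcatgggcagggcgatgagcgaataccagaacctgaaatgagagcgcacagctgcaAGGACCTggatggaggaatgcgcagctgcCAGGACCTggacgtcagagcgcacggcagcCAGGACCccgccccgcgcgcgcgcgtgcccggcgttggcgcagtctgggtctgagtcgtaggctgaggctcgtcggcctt
Dtnb, chr12:3572734-3573033, plus strand: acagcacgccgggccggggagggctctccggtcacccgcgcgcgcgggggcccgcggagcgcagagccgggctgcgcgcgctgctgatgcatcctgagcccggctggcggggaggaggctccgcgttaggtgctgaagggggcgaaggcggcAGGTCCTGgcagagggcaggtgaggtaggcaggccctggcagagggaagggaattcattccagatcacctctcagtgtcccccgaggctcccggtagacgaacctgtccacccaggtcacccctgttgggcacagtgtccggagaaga
Camkmt, chr17:85090376-85090675, plus strand: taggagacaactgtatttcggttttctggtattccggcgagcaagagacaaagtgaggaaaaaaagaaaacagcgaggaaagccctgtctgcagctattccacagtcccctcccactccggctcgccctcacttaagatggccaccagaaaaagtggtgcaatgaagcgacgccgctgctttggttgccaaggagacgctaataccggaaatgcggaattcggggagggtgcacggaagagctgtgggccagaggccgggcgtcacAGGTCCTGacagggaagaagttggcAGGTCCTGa

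**Figure D1:**
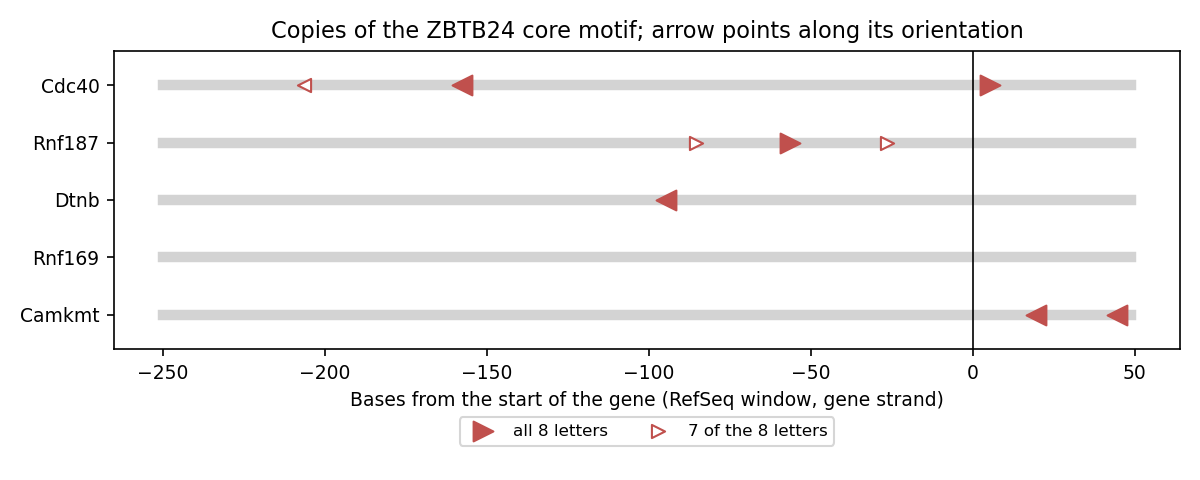
Copies of CAGGACCT (filled arrows) and of its 7-letter parts standing alone (open arrows) along the promoter window of each gene, in bases from the transcript start on the gene's strand. Cdc40 and Camkmt hold 2 full copies each, Rnf187 and Dtnb 1 each, and Rnf169 none.

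The transcript starts used for the windows are those of RefSeq. They differ from the GENCODE starts behind the gene spans and neighbour distances given below. Counting from the start of the transcript as 0, Cdc40 held a forward copy beginning 2 bases after the start and a reverse copy 161 bases before it, with a lone 7-letter part 210 bases before it. Rnf187 held 1 full copy 60 bases before its start, flanked by lone 7-letter parts at 89 and 30 bases before it, all 3 in the forward orientation. Camkmt held 2 reverse copies, 16 and 41 bases after its start. Dtnb has 4 RefSeq windows, and its single copy, reverse and 98 bases before the start, was in the window farthest downstream. That window lies inside the GENCODE span of Dtnb given below. Rnf169 (chr7:99980409-99980708, minus strand) had no copy in its window, which says nothing about DNA outside it. The windows differed in base composition: 43.7% G or C with 12 CpG for Cdc40, 62% with 24 for Rnf187, 70.3% with 26 for the Dtnb window shown, 49.7% with 15 for Rnf169 and 55% with 16 for Camkmt, beside medians of 52.7% and 7 CpG over all windows. A match is a description of the letters and not evidence of binding.

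Cdc40 (ENSMUSG00000038446, chr10:40831621-40883311, GRCm38, minus strand) lies on the chromosome of Zbtb24 itself, with the starts of the genes 567 kb apart. In MZ cells it had 20.3, 21.9 and 17.9 CPM in CKO libraries, against 31.7, 33.2 and 32.9 CPM in control libraries. In FO cells it had 20.8, 21.5 and 18.5 CPM in CKO libraries, against 36.6, 36.1 and 34.9 CPM in control libraries. Every CKO library was below every control library in both cell types, and the CKO level was nearly the same in both. CKO libraries held 61.5 ± 6.24% of the control mean in MZ cells and 56.5 ± 4.39% in FO cells (SD, n = 3 each). The log2 fold change was -0.70 (SE 0.10) in MZ and -0.82 (SE 0.08) in FO cells, over 648 to 1508 reads per library.

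Rnf187 (ENSMUSG00000020496, chr11:58932288-58938916, minus strand) was the most abundant of the 5 per length of transcript. In MZ cells it had 128, 129 and 129 CPM in CKO libraries, against 162, 164 and 192 CPM in control libraries. In FO cells it had 95.5, 103 and 112 CPM in CKO libraries, against 191, 176 and 193 CPM in control libraries. The groups did not overlap in either cell type. CKO libraries held 74.6 ± 0.232% of the control mean in MZ cells and 55.5 ± 4.56% in FO cells (SD, n = 3 each), with log2 fold changes of -0.42 (SE 0.08) and -0.85 (SE 0.07).

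Dtnb (ENSMUSG00000071454, chr12:3572381-3781796, plus strand) had nearly the same difference in both cell types. In MZ cells it had 33.8, 34 and 34.3 CPM in CKO libraries, against 48.1, 50.1 and 52.2 CPM in control libraries. In FO cells it had 29.9, 28.5 and 29 CPM in CKO libraries, against 45.5, 41.8 and 42.8 CPM in control libraries. CKO and control libraries did not overlap in either cell type, and CKO libraries held 67.9 ± 0.565% of the control mean in MZ and 67.1 ± 1.58% in FO cells (SD, n = 3 each). The log2 fold change was -0.56 (SE 0.08) in MZ and -0.57 (SE 0.07) in FO cells. An antisense gene, Dtnbos, lies within the Dtnb span but shares no exon with it, and the sources used here do not say whether counting used the strand.

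Rnf169 (ENSMUSG00000058761, chr7:99920254-99980448, minus strand) had overlapping CKO and control libraries in both cell types. In MZ cells it had 75.3, 78.1 and 77.8 CPM in CKO libraries, against 70.8, 82.1 and 76.8 CPM in control libraries. In FO cells it had 82.8, 86.1 and 92.9 CPM in CKO libraries, against 92.1, 95.3 and 96.7 CPM in control libraries. The log2 fold change was 0.01 (95% interval -0.14 to 0.16) in MZ and -0.12 (95% interval -0.24 to 0.01) in FO cells.

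Camkmt (ENSMUSG00000071037, chr17:85090552-85458588, plus strand) was not lower in CKO cells. In MZ cells it had 15.3, 14.7 and 18.8 CPM in CKO libraries, against 13.1, 13.1 and 15 CPM in control libraries, which overlapped. In FO cells it had 3.37, 4.08 and 4.61 CPM in CKO libraries, against 2.76, 2.87 and 3.27 CPM in control libraries, with every CKO library higher. The log2 fold change was 0.24 (95% interval -0.02 to 0.50) in MZ and 0.44 (95% interval 0.09 to 0.79) in FO cells, the second resting on 111 to 176 reads per library. The summed MZ markers stood at 1431 to 1725 CPM in FO CKO against 1166 to 1581 CPM in FO control libraries, and their part in the FO difference was not tested.

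**Figure D2:**
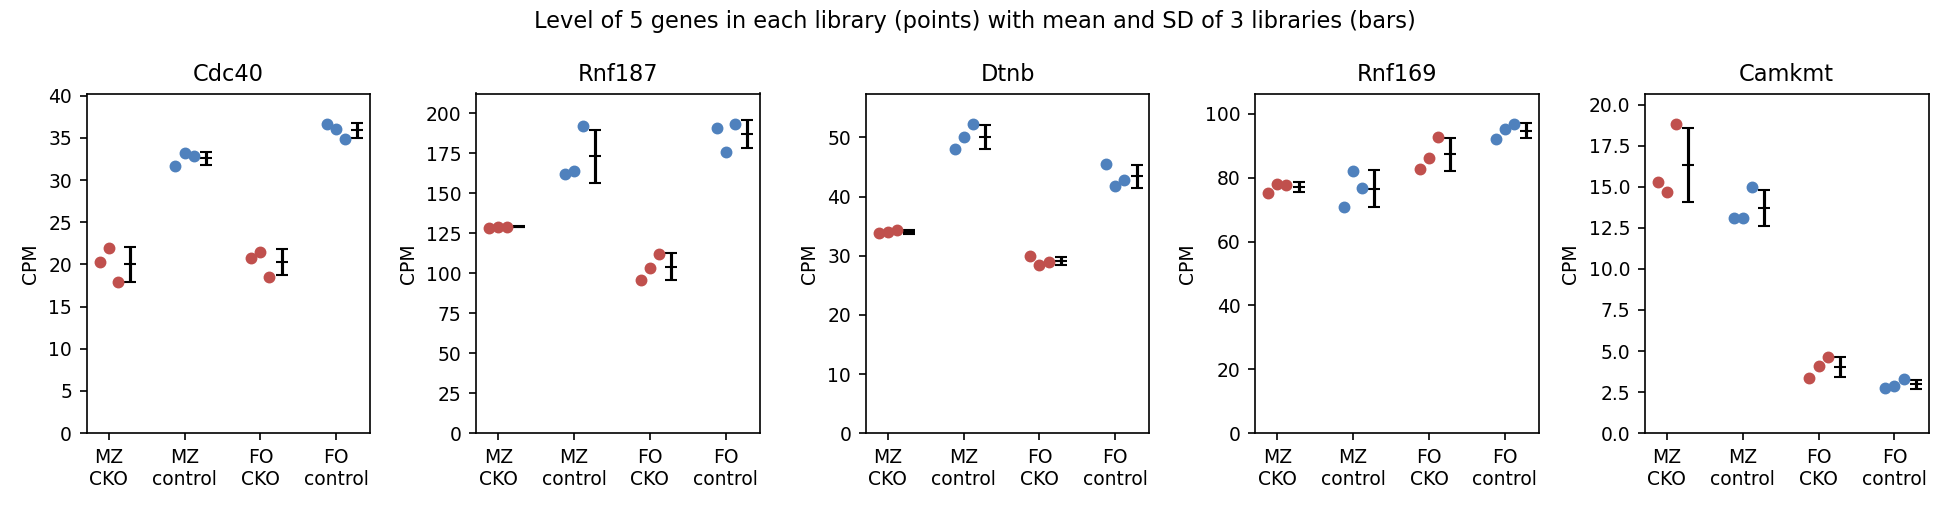
CPM of the 5 genes in each library (points) with the mean and SD of 3 libraries (bars), for MZ CKO, MZ control, FO CKO and FO control B cells. Cdc40, Rnf187 and Dtnb lie below their controls in both cell types, Rnf169 overlaps its controls, and Camkmt is separated mainly by cell type.

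Over all genes, 14 of 17658 passed in MZ cells (0.0793%) and 16 of 17777 in FO cells (0.09%), by edgeR's quasi-likelihood test with a Benjamini-Hochberg adjusted p under 0.05. With the replicate number as a block, 57 passed in MZ and 25 in FO cells, though the labels do not pair CKO with control animals. Calls of the 5 genes in this contrast are not given, because Rnf187 and Dtnb were chosen by it, and the reported targets are treated alike. Libraries of CKO and control did not overlap for 7.63% of all genes in MZ and 9.32% in FO cells, and for 3 and 4 of the 5 genes. Genes with CAGGACCT in a promoter window were then compared with the rest, as a description. In MZ cells 241 of 11175 tested genes with a window held it (2.16%), with a median log2 fold change of -0.00 against 0.01 for the others. In FO cells 248 of 11208 held it (2.21%), with a median of 0.00 against -0.00 for the others. Among them and apart from the 5 genes, Taf6 was the 1 gene called lower in each cell type. The genes called higher were 1 in MZ and 0 in FO cells. Taf6, a component of TFIID that is itself a reported ZBTB24 target, held 2 copies. It is 1 gene, and known as a target beforehand, so nothing is read from these counts.

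**Figure D3:**
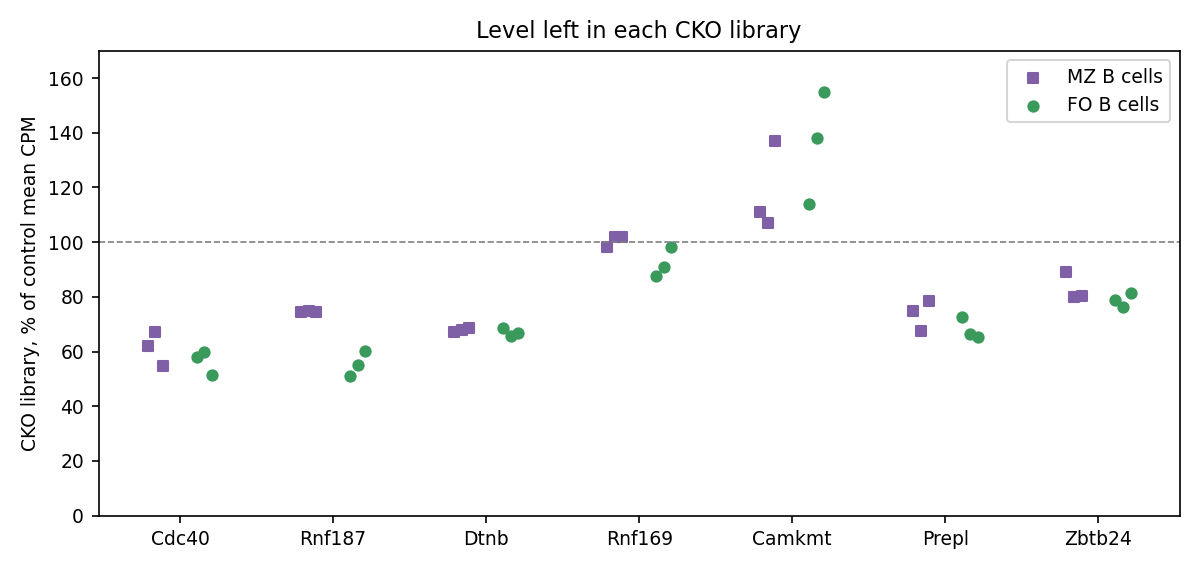
CPM of each CKO library as a percentage of the control mean of the same cell type, for the 5 genes, for Prepl (the gene beside Camkmt) and for Zbtb24; squares are MZ and circles FO libraries, and the dashed line marks 100%. Cdc40, Rnf187, Dtnb and Prepl lie between 51.2% and 78.6% in all 6 CKO libraries, and Camkmt lies above 100% in all 6.

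The genes beside them on the chromosome were tested in the same fits. Of the 39 nearest protein-coding genes, up to 4 on each side, 30 were expressed enough to be tested. By edgeR 0 of the 30 passed in MZ cells (1 at an unadjusted p under 0.05, 1 by DESeq2 and 0 by limma-voom) and 0 in FO cells (3 unadjusted, 1 by DESeq2 and 0 by limma-voom). The unadjusted counts were 3.33% of the tested neighbours in MZ and 10% in FO cells, beside 2.9% and 4.03% of all genes. The median log2 fold change of the neighbours was 0.02 in MZ and -0.02 in FO cells, beside -0.00 and 0.01 over all genes. The gene called by DESeq2 was Prepl in both cell types. Prepl encodes a prolyl endopeptidase-like serine hydrolase, and it begins 311 bases from Camkmt on the opposite strand (chr17:85063470-85090241). It had 22.1, 20 and 23.3 CPM in MZ CKO, against 31.1, 28.3 and 29.4 CPM in MZ control libraries. It had 15.4, 14.1 and 13.9 CPM in FO CKO, against 20.7, 21.1 and 21.7 CPM in FO control libraries. Its groups did not overlap in either cell type, and its CKO level was 73.7 ± 5.6% of the control mean in MZ and 68.1 ± 3.96% in FO cells (SD, n = 3 each). The edgeR test gave a log2 fold change of -0.44 (SE 0.10, adjusted p = 0.3434) in MZ and -0.55 (SE 0.09, adjusted p = 0.1124) in FO cells. DESeq2 gave adjusted p = 0.03623 in MZ and 0.0001573 in FO cells, and over 14 alternatives the adjusted p ran from 0.03623 to 0.9999 in MZ and from 0.0001573 to 0.5975 in FO cells. Prepl was thus below its control libraries in all 6 CKO libraries, while Camkmt, beginning 311 bases away, was above its control mean in all 6.

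The gene that starts beside Cdc40, Wasf1, an actin regulator of the WAVE complex, begins 164 bases away on the opposite strand by the GENCODE starts. It had 0 or 1 reads in every library, so no comparison could be made. Mettl24 on the other side of Cdc40, Chrdl2 beside Rnf169 and Six3 beside Camkmt had too few reads to be tested. Fig4, a phosphoinositide phosphatase between Cdc40 and Zbtb24, was named after its values were seen and had a log2 fold change of 0.09 (SE 0.08, adjusted p = 1) in MZ and -0.06 (SE 0.06, adjusted p = 0.9995) in FO cells by edgeR. Named likewise were Ak9, also between Cdc40 and Zbtb24, and Cdk19, on the other side of Cdc40. Ak9 gave -0.28 (SE 0.34) in MZ and 0.74 (SE 0.31, edgeR unadjusted p = 0.04179, adjusted p = 0.9995) in FO cells, over 13 to 43 reads per library. Cdk19 gave 0.03 (SE 0.09) in MZ and -0.14 (SE 0.06, edgeR unadjusted p = 0.04511, adjusted p = 0.9995) in FO cells. In FO cells every CKO library was above every control library for Ak9 and below for Cdk19. Beside Dtnb, the DNA methyltransferase gene Dnmt3a gave -0.01 (SE 0.07, adjusted p = 1) and -0.03 (SE 0.07, adjusted p = 0.9995) and Asxl2, a chromatin regulator, 0.06 and -0.04. Beside Rnf187, Hist3h2ba, a histone gene with near-identical copies that make its count uncertain, gave -0.14 in MZ and -0.16 in FO cells, and Btnl10 gave 0.20 (SE 1.61) and 0.35 (SE 1.65). Beside Rnf169, Xrra1 gave 0.10 in MZ and 0.18 in FO cells. None of these passed by edgeR.

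**Figure D4:**
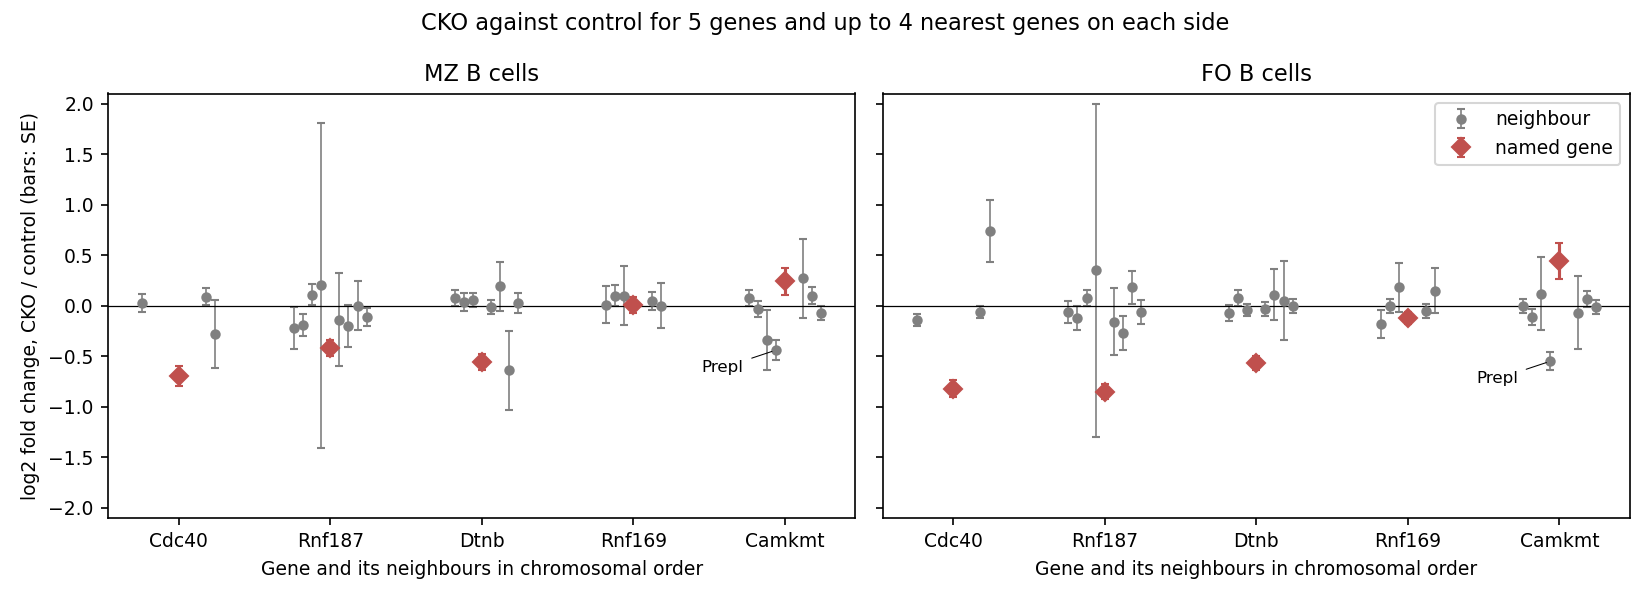
Log2 fold change of CKO over control with its SE for the 5 genes (diamonds) and their tested neighbours (circles, in chromosomal order), in MZ (left) and FO B cells (right). Cdc40 and Rnf187 lie below their neighbours in both panels and Dtnb does in FO cells, and Prepl at -0.44 and -0.55 is the neighbour next to Camkmt; Btnl10 beside Rnf187 has an SE of 1.61 and 1.65.

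Genes that work with these 5, and methyltransferases related to METTL21, were described from 6 lists, with 99 genes tested in each cell type. By edgeR 0 of the 99 passed between CKO and control in MZ cells (3 at an unadjusted p under 0.05, 1 by DESeq2 and 0 by limma-voom) and 0 in FO cells (6 unadjusted, 0 by DESeq2 and 0 by limma-voom). The unadjusted counts were 3.03% of the list genes in MZ and 6.06% in FO cells, beside 2.9% and 4.03% of all genes. The 28 splicing genes around the second catalytic step had a median log2 fold change of 0.06 in MZ and -0.02 in FO cells. The values of smallest p were 0.16 for Ctnnbl1 and 0.15 for Eftud2 in MZ, and -0.11 for Snrnp200 and -0.09 for Prpf18 in FO cells. The 16 genes of AP-1 and of RNF187 regulation had medians of 0.02 and -0.04, led by Map2k2 at 0.12 and Mapk3 at 0.13 in MZ and by the kinases Map3k1 at -0.13 and Rps6ka5 at -0.11 in FO cells. The 10 tested genes of the dystrophin complex, of 18 listed, had medians of 0.01 and -0.09. Dystroglycan, Dag1, gave -0.21 in MZ and -0.27 in FO cells, Sspn (sarcospan) 0.72 in MZ and the syntrophin Sntb1 -0.47 in FO cells. The 19 genes of the RNF168 pathway had medians of 0.01 and -0.00, with Babam2 at 0.22 and Bard1 at 0.51 in MZ and Dyrk1a at -0.11 and Uimc1 at 0.06 in FO cells. The 16 genes of calmodulin and its enzymes had medians of 0.00 and -0.06, with Camk2b at -0.47 in MZ and -0.43 in FO cells and Camk1 at -0.27 and 0.29. The 10 methyltransferases related to METTL21 had medians of -0.01 and -0.04. The gene DESeq2 called in MZ cells was Mettl23, a methyltransferase of this list, with an edgeR log2 fold change of -0.40 (adjusted p = 0.3278) in MZ and -0.18 (adjusted p = 0.9995) in FO cells. Eef1akmt3 gave 0.28 in MZ and Mettl22 0.12 in FO cells. Adjusted p over all genes was at least 0.3278 in MZ and 0.9995 in FO cells for every gene of these lists.

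The comparison of MZ with FO cells is not the contrast that chose the genes, and it was tested in the fits over all genes. It is not independent of that choice for Rnf187 and Dtnb, because the CKO and control libraries by which they were chosen enter it. The values of Rnf187 and Dtnb in CKO and in control mice are thus not read as support. Camkmt had the widest gap of the 5. Control mice had 4.63-fold more Camkmt in MZ than in FO cells (log2 fold change 2.21, SE 0.14, edgeR adjusted p = 5.789e-07), and CKO mice 4.06-fold more (2.02, SE 0.17, adjusted p = 7.27e-05). By size it ranked 243 among 4977 called genes in control and 234 among 3243 in CKO mice. Within each animal number the MZ to FO ratio was 4.53, 3.59 and 4.08 in CKO and 4.74, 4.57 and 4.59 in control mice. The FO libraries also held MZ marker transcripts, in the ranges given above, and the part of MZ cells among them in the FO level of Camkmt was not tested.

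Rnf169 was lower in MZ than in FO cells of control mice, by -0.31 on the log2 scale (SE 0.07, adjusted p = 0.006948), and gave -0.17 (SE 0.07, adjusted p = 0.1109) in CKO mice. Its ratio was below 1 in all 6 animals, at 0.91, 0.907 and 0.837 in CKO and 0.769, 0.861 and 0.794 in control mice. Dtnb was slightly higher in MZ cells of control mice (log2 fold change 0.21, SE 0.07, adjusted p = 0.03933) and gave 0.23 (SE 0.07, adjusted p = 0.05489) in CKO mice. Its ratio was above 1 in all 6 animals, from 1.13 to 1.19 in CKO and from 1.06 to 1.22 in control mice. With the animal as a block, which the shared numbers warrant, Dtnb and Rnf169 passed in CKO mice as well, at adjusted p = 0.01741 and 0.04206. Without mice 2002 and 2003, whose numbers lie apart from the other 4, Rnf169 gave -0.29 (adjusted p = 0.07668) and Dtnb 0.17 (adjusted p = 0.2522) in control mice. Dtnb also missed the threshold without 5 of the 6 control libraries in turn.

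Cdc40 and Rnf187 gave no difference between MZ and FO cells past the threshold in control mice. Cdc40 gave -0.14 (95% interval -0.27 to -0.00, edgeR unadjusted p = 0.07066, adjusted p = 0.1707) and Rnf187 -0.11 (95% interval -0.27 to 0.04, adjusted p = 0.3239). The intervals are approximate and narrower than the edgeR test itself would give. Every MZ library of control mice was nonetheless below every FO library for Cdc40. Its MZ to FO ratios were 0.865, 0.92 and 0.942 in control mice and 0.975, 1.02 and 0.967 in CKO mice. With the animal as a block, edgeR gave Cdc40 an adjusted p = 0.08597 in control mice. In CKO mice Cdc40 gave -0.01 (SE 0.11, adjusted p = 0.9681), while Rnf187 was higher in MZ than in FO cells by 0.32 (SE 0.07, adjusted p = 0.01353). That Rnf187 call was lost without replicate 1 of FO CKO (0.26, adjusted p = 0.07695). The ratio of MZ to FO Rnf187 was 1.34, 1.26 and 1.14 in CKO mice and 0.849, 0.928 and 0.995 in control mice, so CKO animals lay above 1 and control animals below it.

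**Figure D5:**
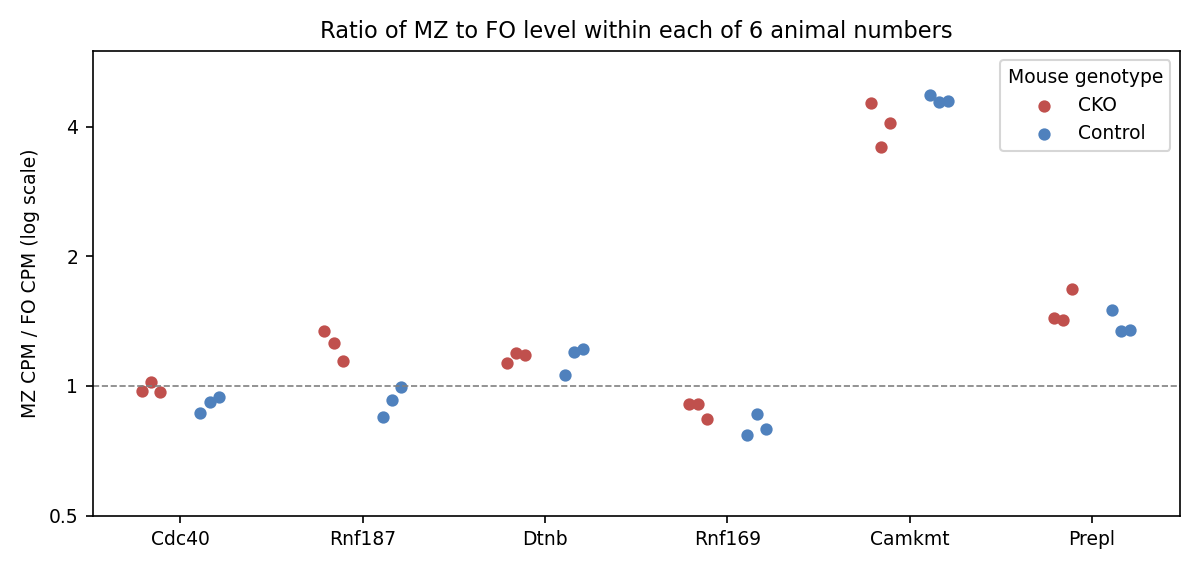
Ratio of MZ CPM to FO CPM for each animal number (log scale), with 3 CKO and 3 control mice per gene; the dashed line marks a ratio of 1. Camkmt lies between 3.59 and 4.74 in all 6 mice, and Rnf187 lies above 1 in the CKO and below 1 in the control mice.

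Read against all genes, MZ and FO cells differed in many transcripts, 27.9% of the 17830 tested in control and 18.3% of the 17712 tested in CKO mice. With the animal as a block these became 7805 and 6333 genes, against 4977 and 3243 without it. Of the 5 genes, 3 passed in control (Camkmt and Dtnb higher, Rnf169 lower in MZ) and 2 in CKO mice (Camkmt and Rnf187, both higher in MZ). The MZ and FO libraries did not overlap for 4 of the 5 in control and 4 in CKO mice, beside 42.3% and 36.4% of all genes. The difference between the genotype effects in MZ and in FO cells is built from the contrasts that chose some of the genes, so it is given beside them and not as support. Over all 12 libraries 0 of 18546 genes passed by edgeR (0%), with 238 at an unadjusted p under 0.05. DESeq2 called 0 and limma-voom 0, and the fit with the animal as a block called 4. Rnf187 had a difference of 0.43 (95% interval 0.21 to 0.64, adjusted p = 1, or 0.1013 with the animal block). The others gave 0.12 for Cdc40 (95% interval -0.11 to 0.36), 0.02 for Dtnb (-0.16 to 0.19), 0.13 for Rnf169 (-0.06 to 0.31) and -0.19 for Camkmt (-0.60 to 0.21), each with adjusted p = 1 by edgeR.

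Of the 99 genes of the related lists, 8 were higher and 27 lower in MZ than in FO cells of control mice, beside 2653 higher and 2324 lower of the 17830 genes tested, or 27.9% called. Some lists, such as the RNF168 pathway, thus held no larger share of called genes than the whole. The genes named here were chosen after their values were seen. The dystrophin complex, to which Dtnb belongs, split into 4 higher and 4 lower of 10. Utrn (utrophin) at 0.61 (adjusted p = 0.0001026) and Dmd (dystrophin) at 1.38 (adjusted p = 0.0001125) were higher in MZ cells, and Dag1 was lower at -0.44 (adjusted p = 0.002439), by edgeR. Of the AP-1 list 1 gene was higher and 6 of 16 were lower, among them Jund at -1.01 and Rps6ka5, which encodes the kinase MSK1, at -0.91. Splicing genes gave 0 higher and 8 lower of 28, with a median of -0.10. The RNF168 pathway gave 1 higher and 3 lower of 19, with Mdc1 at -0.48, Dyrk1a at -0.40 and Rif1 at -0.32 lower and Herc2 at 0.21 higher. The calmodulin list gave 1 higher, Camk2a at 1.45, and 6 lower of 16, and the METTL21 list 1 higher of 10, Mettl21a at 1.08.

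Per length of exon (RPKM, with exon unions of 1.95 to 9.6 kb), Rnf187 was highest in all groups. It averaged 66 ± 0.205 RPKM in MZ CKO and 88.5 ± 8.5 in MZ control, and 53.1 ± 4.36 in FO CKO and 95.8 ± 4.59 in FO control libraries (SD, n = 3 each). Rnf169 followed at 10.1 ± 0.198 in MZ CKO and 10 ± 0.742 in MZ control, and 11.4 ± 0.676 in FO CKO and 12.4 ± 0.312 RPKM in FO control libraries. Dtnb and Cdc40 were close to each other in FO control libraries, at 4.52 ± 0.198 and 4.38 ± 0.109 RPKM, within their spread. In MZ control libraries Dtnb averaged 5.22 ± 0.212, Cdc40 3.97 ± 0.0949 and Camkmt 3.34 ± 0.265 RPKM. Camkmt was lowest in FO cells, at 0.977 ± 0.151 in CKO and 0.721 ± 0.0648 RPKM in control libraries, but in MZ CKO cells its 3.95 ± 0.548 RPKM stood above the 2.44 ± 0.248 RPKM of Cdc40, and Dtnb, at 3.54 ± 0.0295 RPKM, lay within the wider spread of Camkmt.

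The genes with the most similar pattern were found by Pearson's r of log2 CPM over the 12 libraries, among 9685 genes with a mean of at least 5 CPM over all libraries, which some passed only through the groups where they are high. The points share animals and the genotype contrast that chose some of the genes, so r is a description. For Cdc40 these were Cdca7 (r = 0.953), Taf6 (0.948) and Caskin2 (0.910). For Rnf187 they were Taf6 (0.941), Cdca7 (0.913) and Ostc (0.877), and for Dtnb Taf6 (0.943), Cdca7 (0.931) and Ostc (0.882). Cdca7, whose product works with the remodeller HELLS and which is mutated in another form of ICF syndrome, stood in all 3 lists together with Taf6. Cdca7 and Ostc are, like Taf6, reported ZBTB24 targets. Caskin2 had 6.55, 8.4 and 5.88 CPM in MZ CKO against 9.71, 9.04 and 9.33 in MZ control, and 6.79, 8.79 and 7.02 in FO CKO against 12.4, 11.1 and 10.7 CPM in FO control libraries. For Rnf169 the nearest were Zbtb2 (0.974), Ss18 (0.972) and Pitpna (0.967). For Camkmt they were Mfhas1, Cd1d1 and Nebl (0.991 each), and Cd1d1, which presents lipid antigen, and Nebl are on the MZ marker list. Among the 5 genes, r was 0.88 for Cdc40 with Rnf187, 0.87 for Cdc40 with Dtnb, 0.91 for Rnf187 with Dtnb and -0.85 for Rnf169 with Camkmt, and it lay between -0.27 and 0.27 for the other pairs.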

How the data were processed

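The deposited values are raw counts of reads per Ensembl gene for 12 libraries, made by the authors with TopHat and HTSeq on GRCm38, per the submitters' processing notes. Annotation release, strand setting and versions are not given in the sources used here. Symbols came from GENCODE M21, and 5 summary entries were left out. The 5 genes and all lists were chosen with earlier results of these data known.

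Tests used edgeR 4.0.16 (TMM, filterByExpr, robust quasi-likelihood, two-sided, Benjamini-Hochberg over all genes tested, threshold 0.05) on the libraries of each comparison. SE was derived from the fold change and its F statistic, and 95% intervals from the SE by the normal distribution. With few libraries these intervals are narrower than the test itself would give, so they are approximate and not read as tests. CPM and RPKM used all 12 libraries. DESeq2 1.42.0 and limma-voom 3.58.1 were alternatives, with other scaling, no filter, blocks and left-out libraries. The scripts were tested on simulated data.

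Pairing was checked by correlating deviations from group means. Libraries sharing an animal number across MZ and FO correlated at 0.43 to 0.65, others at -0.45 to -0.12. CKO and control libraries with the same replicate number, which have different animal numbers, correlated at 0.104 to 0.361 in FO and -0.065 to 0.365 in MZ cells. The labels do not say in words that each number is 1 mouse, but the MZ and FO correlations warrant the animal block. The main tests leave this pairing out, so their p-values measure the spread between libraries. Fits with the animal as a block are alternatives. Named genes were the 5, the 2 of smallest p per list and cell type, nearest neighbours, and the 3 most correlated genes for each, leaving out predicted genes and pseudogenes. The list genes named for MZ against FO, and Fig4, Ak9 and Cdk19, fall outside this rule and were picked with their values known.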

Additional observations from a re-analysis of the deposited data

Results flagged for a closer look

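The ratio of MZ to FO Rnf187 was above 1 in the 3 CKO mice and below 1 in the 3 control mice, and the log2 difference between CKO and control was 0.43. A test of this difference over all genes did not pass (edgeR adjusted p = 1; 0.1013 with the animal as a block; 0.1013 to 1 over 19 alternatives). The difference is built from the CKO and control values by which Rnf187 was chosen, so it is not independent of that choice.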

How the results depend on the processing

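Over 14 alternatives the log2 fold changes of CKO over control lay between -0.77 and -0.61 in MZ and -0.87 and -0.75 in FO cells for Cdc40, -0.47 and -0.34 and -0.90 and -0.79 for Rnf187, -0.59 and -0.52 and -0.59 and -0.54 for Dtnb, -0.05 and 0.06 and -0.16 and -0.08 for Rnf169, and 0.13 and 0.32 and 0.34 and 0.55 for Camkmt. The number of all genes passing in MZ cells, 14, became 38 with DESeq2, 7 with limma-voom, 7 without robust estimates, 95 with no filter, 57 with the replicate block and 34 without mice 2002 and 2003. In FO cells 16 became 40 with DESeq2, 140 with no filter, 25 with the replicate block and 26 without those mice. Leaving out a library gave 5 to 34 in MZ (5, 7 and 9 without control replicates 2, 1 and 3, and 34 without CKO replicate 3) and 11 to 31 in FO cells (31 without CKO replicate 3). DESeq2 called 1 neighbour in each cell type, and no filter and the fit of all 12 libraries 1 in FO cells. DESeq2 and no filter called 1 gene of the related lists in MZ cells.

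For MZ against FO, 4977 called genes in control mice became 7805 with the replicate block by animal and 2888 without mice 2002 and 2003, when 1 of the 5 genes passed. In CKO mice 3243 became 6333 and 1770, and 1898 to 2884 with a library left out, lowest without FO CKO replicate 1. With the block 4 of the 5 passed, and 1 to 2 with a library left out. Dtnb in control mice gave 0.20 (adjusted p = 0.05313) with RLE size factors, 0.20 (0.07041) with DESeq2, 0.21 (0.07692) with no filter, 0.17 without the mice and 0.18 to 0.24 with a library left out, at adjusted p up to 0.1746. Rnf169 gave -0.29 without the mice. In CKO mice Dtnb passed with DESeq2 (0.23, adjusted p = 0.03529), with all 12 libraries (0.22, 0.01854) and with the block (0.23, 0.01741), as did Rnf169 with the block (-0.17, 0.04206). Rnf187 there ran from 0.26 to 0.38 with a library left out. The test between genotype effects called 4 genes with the block by animal, none of the 5. The cause of these shifts was not tested. No alternative reversed a called value. Camkmt in FO cells, at 111 to 176 reads, has the least precision of the 5.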

Other observations

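Btnl10, a butyrophilin-like gene next to Rnf187, varied among mice of the same group, and it was noticed after the values were seen. It had 25, 251 and 8 reads in MZ CKO against 67, 189 and 7 in MZ control libraries, and 60, 357 and 9 in FO CKO against 130, 205 and 7 in FO control libraries. The low libraries, at 7 to 9 reads, were those of mice 2002 and 2003 in both cell types and both genotypes, and the cause was not tested.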
